A study of Homo sapiens with 10 samples.

Results

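The genes described here are the small nuclear RNA (snRNA) genes of the spliceosome and their copies. They were taken as the identifiers of the count table whose GENCODE biotype is snRNA and whose symbol begins with RNU or RNVU, with a sum of at least 100 counts over the 10 libraries. Of 55841 identifiers in the table, 1786 carried such a name, 752 of these held no count in any library, and 89 reached the minimum. A symbol that ends in P marks a gene that the nomenclature regards as a pseudogene, and such genes are called copies here. The other members are called main genes. There were 28 main genes and 61 copies. The members were thus chosen by their sum of counts, so their high level is a condition of membership and not a result. Just inside the minimum lay RNU6-850P and RNU6-33P with 102 counts each, and just outside it RNU6-171P with 99 and RNU4-39P with 98.

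Bulk RNA was sequenced in 10 libraries of HES9 (the name in the labels), a line of human embryonic stem cells grown without feeder cells on matrigel in mTESR1 medium. The study compared the general, nonsorted culture with HHH cells, which were sorted by flow cytometry for the highest levels of the surface antigens EPCAM, GCTM2 and CD9, and which the study relates to a high capacity for self-renewal. Each population had 5 libraries, in 2 batches that the titles name without saying what a batch is. Batch 1 held 2 libraries of each population (general replicates 1 and 2, HHH replicates 2 and 3) and batch 2 held 3 of each. The series' design text also speaks of protein kinase C inhibitors, but no label ties a library to them. The labels do not say whether replicates were separate cultures, so p-values measure the spread between these libraries, which may be technical. Library totals ran from 47242595 to 78503395 counts, and 3 counts equalled 0.0460 to 0.0687 CPM (counts divided by the library total, as a rate per 1000000, scaled by TMM factors as given under the processing). The 7 pluripotency genes checked were expressed in both populations, POU5F1 at a mean of 516 CPM in general and 569.8 CPM in HHH cells. Log2 fold changes of the 7 in HHH cells were positive for 3 and negative for 4, from -0.26 to 0.44 with a median of -0.03. None reached 1.5-fold, and the edgeR adjusted p was below 0.05 for 1 that was higher and 1 that was lower. Of the sort antigens, EPCAM had a log2 fold change of 0.41 (edgeR adjusted p 0.00645) and CD9 one of 0.29 (0.195), both short of the 1.5-fold used below. Of 16 markers of other cell types, 8 were too low to test and 4 fell in HHH cells (LHX5, SOX1, KRT7 and COL1A1). Estimates were negative for 6 of the 8 tested and positive for 2, the largest at 0.49 on the log2 scale, and none passed as higher. The summed level of the listed markers ran from 32.0 to 54.2 CPM in the general libraries and from 17.7 to 27.2 CPM in the HHH libraries. The part of these cells in the snRNA results was not tested.

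The spliceosome removes introns with 5 small RNAs, U1, U2, U4, U5 and U6, each carried in a particle with proteins. U1 pairs with the 5′ splice site, U2 with the branch site, U5 holds the exons together through its loop, and U6, which is delivered by U4, lies in the catalytic centre. U4atac and U6atac take the places of U4 and U6 in the minor spliceosome, and U7, which is not a splicing RNA, acts in the 3′ end processing of histone messages. Each of these RNAs is encoded by a few functional genes among many pseudogenes, and the RNVU1 genes encode variants of U1. The functional snRNAs carry no poly(A) tail. By type, the members were 4 main genes and 7 copies of U1, 9 U1 variants, 21 copies of U2, 2 main genes and 5 copies of U4, 5 main genes and 3 copies of U5, 5 main genes and 20 copies of U6, 1 main gene and 4 copies of U7, the U4atac gene, and the U6atac gene with 1 copy. U11 and U12 had no member. The genes RNU2-1, RNU11 and RNU12 were not analysed here, so U2 is represented by genes named as copies, of which RNU2-2P is known to be an expressed and functional U2 gene in spite of its name.

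The U1 genes that the results turn on are given first, 5′ to 3′ in DNA letters from the GENCODE transcripts. RNU1-1 stands for 7 members with the same letters (RNU1-1, RNU1-2, RNU1-3, RNU1-4, RNU1-27P, RNU1-28P and RNVU1-18). The next pair are copies and the last 3 are variants that differed between the populations. Capitals mark the 5′ end that pairs with the 5′ splice site (ACTTACCTG) and the site that binds the Sm proteins (ATTTGTG), where the letters are intact.
RNU1-1: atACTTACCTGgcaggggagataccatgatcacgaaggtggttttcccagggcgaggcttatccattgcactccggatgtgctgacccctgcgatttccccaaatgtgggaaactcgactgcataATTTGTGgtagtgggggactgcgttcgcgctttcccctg
RNU1-11P: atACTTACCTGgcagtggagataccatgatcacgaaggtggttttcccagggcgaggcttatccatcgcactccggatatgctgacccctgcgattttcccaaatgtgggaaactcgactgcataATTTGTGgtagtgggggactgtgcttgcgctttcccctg
RNU1-57P: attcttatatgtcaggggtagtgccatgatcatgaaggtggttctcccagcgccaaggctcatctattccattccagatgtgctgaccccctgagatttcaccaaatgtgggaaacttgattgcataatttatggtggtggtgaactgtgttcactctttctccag
RNVU1-34: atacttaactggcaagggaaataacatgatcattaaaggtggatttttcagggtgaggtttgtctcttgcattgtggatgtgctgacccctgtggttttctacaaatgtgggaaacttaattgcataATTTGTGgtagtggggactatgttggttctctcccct
RNVU1-22: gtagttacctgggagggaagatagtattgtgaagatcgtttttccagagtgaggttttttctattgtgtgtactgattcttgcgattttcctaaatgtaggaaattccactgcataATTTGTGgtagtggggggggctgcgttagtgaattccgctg
RNVU1-15: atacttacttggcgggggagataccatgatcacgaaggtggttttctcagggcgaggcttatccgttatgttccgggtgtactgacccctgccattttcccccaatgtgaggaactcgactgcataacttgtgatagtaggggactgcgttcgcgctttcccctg

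Counting positions from 1 at the 5′ end of the RNA, RNU1-11P differed from RNU1-1 by 7 substitutions (G16T, T67C, G79A, C98T, C147T, T149C and C151T) and kept both elements. RNU1-57P was 81.4% identical to RNU1-1 and held neither. RNVU1-15 (89.1%) held neither, whereas RNVU1-34 (79.5%) and RNVU1-22 (73.7%) held the Sm site without the full 5′ end. On the transcribed strand the U1 5′ element was present in the 4 main genes, in 4 of 9 variants and in 3 of 7 member copies, against 26 of 98 U1 copies below the count minimum (26.5%). On GRCh38, RNU1-1 lies at chr1:16514122-16514285 on the minus strand, RNU1-11P at chr6:13214056-13214219 on the plus strand in an intron of PHACTR1, and RNU1-57P at chrX:113949917-113950082 on the plus strand, antisense within an exon of the noncoding gene XACT. RNVU1-34 lies at chr17:58679527-58679690 on the minus strand in an intron of TEX14. RNVU1-22 lies at chr1:148263476-148263632 and RNVU1-15 at chr1:144412576-144412740, both on the plus strand with no other gene over them.

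For U2 and U4, RNU2-2P is shown because it held most of the counts, RNU2-61P as an abundant U2 copy without the branch site letters, and RNU4-1 as the reference for U4. Capitals mark the U2 region that pairs with the branch site (GTAGTA) and the Sm site of U2 and U4 (ATTTTTG).
RNU2-2P: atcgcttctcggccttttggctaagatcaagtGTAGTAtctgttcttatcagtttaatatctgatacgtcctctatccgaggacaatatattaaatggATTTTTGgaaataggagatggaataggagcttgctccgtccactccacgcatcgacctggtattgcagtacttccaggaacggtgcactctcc
RNU2-61P: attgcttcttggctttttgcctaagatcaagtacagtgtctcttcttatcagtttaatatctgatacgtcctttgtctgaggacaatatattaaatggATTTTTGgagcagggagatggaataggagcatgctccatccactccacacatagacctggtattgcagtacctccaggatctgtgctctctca
RNU4-1: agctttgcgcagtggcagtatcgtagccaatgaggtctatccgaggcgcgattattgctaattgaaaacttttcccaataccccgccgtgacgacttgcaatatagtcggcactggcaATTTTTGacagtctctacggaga

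RNU2-2P (chr11:62841619-62841809, minus strand) lies in an exon of WDR74 on the same strand. The branch site letters were present in 14 of 21 member copies of U2 (66.7%) and in 20 of 48 U2 copies below the minimum (41.7%). RNU4-2 differed from RNU4-1 at 4 positions (C37T, G88A, C99A and C113T), and their genes are neighbours on chromosome 12 (RNU4-2 at chr12:120291763-120291903 and RNU4-1 at chr12:120293097-120293237, minus strand).

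Among the U5 genes, RNU5A-1 is the reference and RNU5D-1 the main gene that passed the test below. The U5 loop that touches both exons (GCCTTTTAC) was intact in all 5 main genes and all 3 member copies of U5, against 6 of 23 U5 copies below the minimum (26.1%). RNU5D-1 lies at chr1:44731055-44731170 on the minus strand with no other gene over it.

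The remaining types are shown by the most abundant U6 copy and by the reference genes of U7, U4atac and U6atac, in lower case because no element is marked in them.
RNU6-146P: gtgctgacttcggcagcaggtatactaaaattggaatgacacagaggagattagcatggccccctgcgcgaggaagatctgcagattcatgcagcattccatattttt
RNU7-1: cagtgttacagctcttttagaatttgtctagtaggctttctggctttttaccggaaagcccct
RNU4ATAC: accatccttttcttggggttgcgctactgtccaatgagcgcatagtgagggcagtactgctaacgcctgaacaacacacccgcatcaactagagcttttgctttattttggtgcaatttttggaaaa
RNU6ATAC: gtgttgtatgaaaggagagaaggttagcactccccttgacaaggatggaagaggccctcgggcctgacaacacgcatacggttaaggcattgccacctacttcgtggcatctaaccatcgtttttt

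Of the U6 members, 6 had the same letters (RNU6-1, RNU6-2, RNU6-9, RNU6-3P, RNU6-4P and RNU6-5P), and RNU6-7 and RNU6-8 were identical to each other. The U6 box that contacts the 5′ splice site (ACAGAGA) was as frequent in the 20 member copies (11, or 55.0%) as in the 1233 U6 copies below the minimum (666, or 54.0%), and RNU6-146P (chrX:3607258-3607365, minus strand, in an exon of PRKX) did not hold it.

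The most abundant member was RNU2-2P, which held 3299975 of the 4181350 counts assigned to the 89 members (78.9%). Its level was 15471 and 11307 CPM in the general libraries of batch 1 and 20669 and 8942 CPM in the HHH libraries, and in batch 2 it was 489, 763 and 660.0 CPM in general and 743, 898 and 972 CPM in HHH libraries. The populations overlapped in each batch, and batch 1 lay far above batch 2. Per kilobase of gene, the mean level over the 10 libraries was 31892 CPM for RNU2-2P, 1422 for RNU4-2, 1403 for RNU4-1, 515 for RNU1-27P, 439.7 for RNU1-4, 376 for RNU1-2 and 358 for RNU5A-1. The genes of U6, U7 and the atac RNAs stood lower, with 12.2 CPM per kilobase for RNU6-9, 15.9 for RNU6-8, 19.8 for RNU7-1, 22.0 for RNU4ATAC and 72.9 for RNU6ATAC. The levels of RNU4-1 and RNU4-2 differed by less than their spread over libraries.

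Genes with the same letters were not counted alike. Among the 7 identical U1 members the mean level ran from 12.01 CPM for RNU1-3 to 84.4 CPM for RNU1-27P, a 7.03-fold range, and among the 6 identical U6 members from 0.192 CPM for RNU6-5P to 1.30 CPM for RNU6-9. How the authors' counting treated reads that match several genes is not given in the sources used here, so the value of one of these genes is uncertain. Reads of an abundant gene may also be counted at a copy that differs from it at few positions, and this was not tested. The sum over identical genes does not depend on how shared reads were split among them. It would still depend on whether such reads were left out, counted more than once or given to genes outside the members.

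In bulk RNA, a change in the share of cells cannot be told apart from a change in RNA per cell. Together the members took 1.54% ± 0.552 (SD, n = 4) of the counts in batch 1 and 0.108% ± 0.0209 (SD, n = 6) in batch 2. As summed CPM, U1 members stood at 579 and 496 in the general libraries of batch 1 and at 1346 and 345 in the HHH libraries. In batch 2 the U1 sums were 14.3, 27.8 and 15.3 CPM in general and 18.6, 31.3 and 21.5 CPM in HHH libraries. U5 members gave 182 and 168 CPM in general against 642 and 182 CPM in HHH libraries of batch 1, and 13.3, 22.2 and 17.6 CPM against 18.8, 31.4 and 27.3 CPM in batch 2. In both types HHH replicate 2 of batch 1 stood far above the other 3 libraries of its batch, while HHH replicate 3 lay near or below the general libraries. That library was the highest of batch 1 for 66 of the 89 members (74.2%) and for 28.3% of all genes tested. U6 members behaved otherwise. Their sums were 22.0 and 20.5 CPM in general and 22.4 and 18.5 CPM in HHH libraries of batch 1, and lay between 14.0 and 15.8 CPM in the 6 libraries of batch 2, with no visible order by population.

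**Figure D1:**
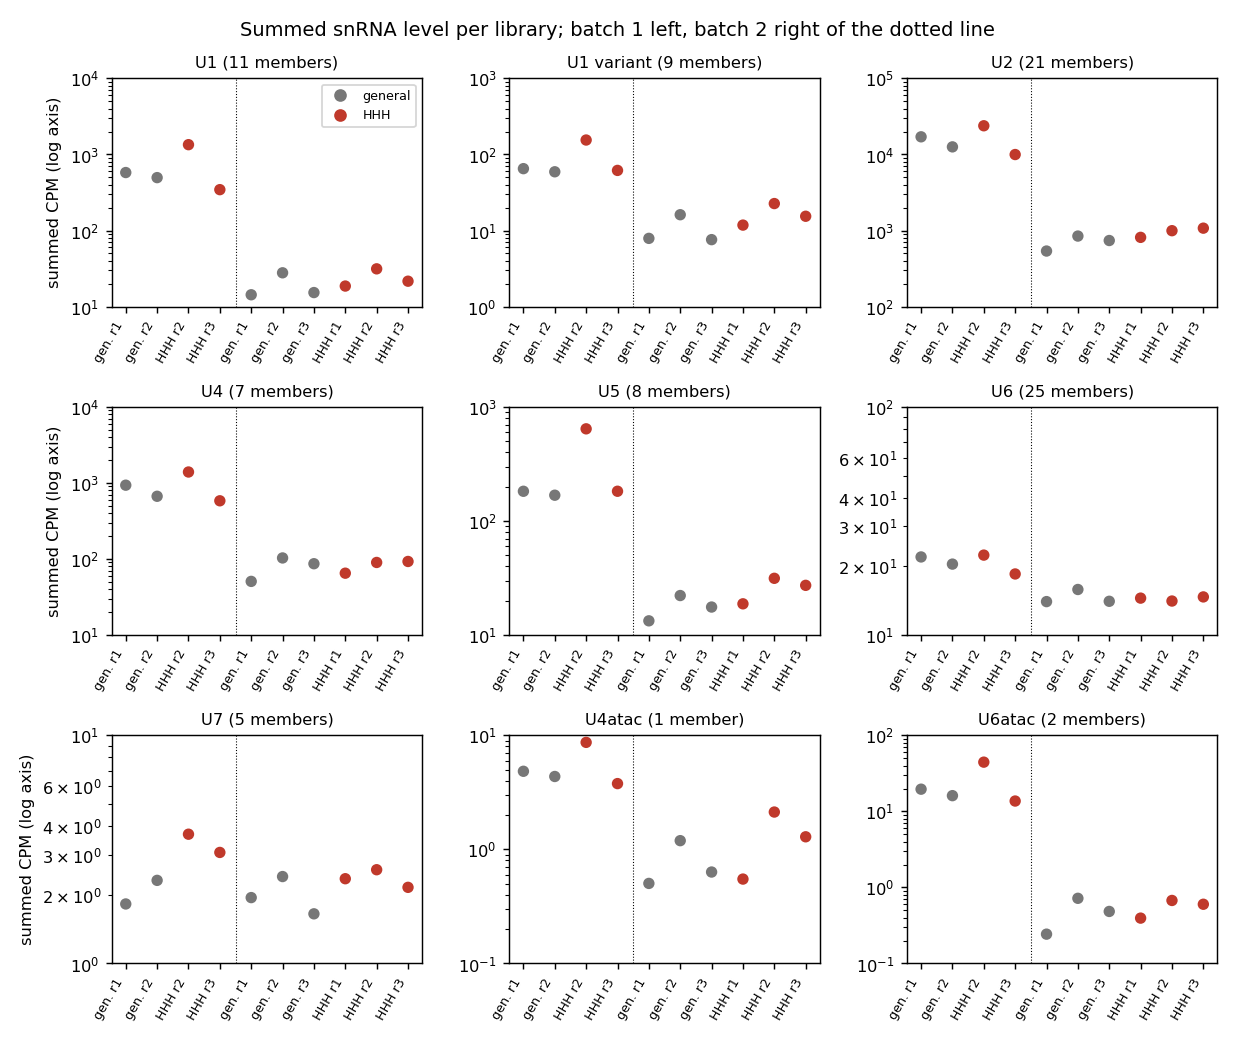
Summed CPM of the members of each snRNA type (vertical log axis) in each of the 10 libraries (horizontal axis, gen. for general, r for replicate), with general libraries in grey and HHH libraries in red. Batch 1 stood above batch 2 for all types but U7, and by less for U6 (18.5 to 22.4 CPM against 14.0 to 15.8 CPM). HHH replicate 2 of batch 1 was the highest point for U1 (1346 CPM) and U5 (642 CPM).

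The main question was whether these RNAs differed between HHH cells and the general culture. Over the 10 libraries, with batch as a term, 6 of the 78 members that could be tested were higher in HHH cells and 1 was lower (edgeR quasi-likelihood test, Benjamini-Hochberg adjusted p below 0.05 and a fold over 1.5). Among all 23552 genes tested the share higher was 0.637% and the share lower 2.34%. The 6 that rose were the U1 copies RNU1-11P and RNU1-28P, the U1 variants RNVU1-34, RNVU1-22 and RNVU1-15, and the U5 main gene RNU5D-1, and the one that fell was the U1 copy RNU1-57P. Fold changes were positive for 63 of the 78 members, with a median of 0.49 on the log2 scale against 0.016 for all genes tested. The estimate was positive for 27 of 28 main genes (median 0.63) and for 36 of 50 copies (median 0.29). The classes differed in type, as U6 gave 17 of the 50 copies and 5 of the 28 main genes. Medians of copies and main genes were -0.006 and 0.17 for U6, 0.08 and 0.68 for U7, and 0.43 and 0.63 for U1. They were 0.97 and 0.88 for U5 and 0.18 and 0.15 for U4, and 0.46 for the U2 copies. The part of type in the difference between classes was not tested. The 11 members too low to test had between 0 and 9 counts in each library of batch 2.

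RNU1-11P gave 1.96 and 1.38 CPM in the general libraries of batch 1 and 10.98 and 2.54 CPM in the HHH libraries, and in batch 2 it gave 0.0868, 0.123 and 0.133 CPM in general and 0.137, 0.207 and 0.159 CPM in HHH libraries. The HHH libraries lay above the general ones in each batch, but batch 2 held no more than 12 counts of this gene in any library. The log2 fold change was 1.65 ± 0.43 (SE), with an adjusted p of 0.0354 by edgeR. RNU1-28P, which has the letters of RNU1-1, gave 61.8 and 27.3 CPM in general and 195 and 62.3 CPM in HHH libraries of batch 1, and 0.729, 0.965 and 0.634 CPM against 1.39, 1.31 and 1.10 CPM in batch 2. Its populations were again apart in each batch, and the log2 fold change was 1.22 ± 0.33 (SE, adjusted edgeR p 0.0438).

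Of the U1 variants, RNVU1-34 was at 0.460 and 1.48 CPM in general and 2.47 and 1.97 CPM in HHH libraries of batch 1. In batch 2 RNVU1-34 was at 0.174, 0.281 and 0.117 CPM in general and 0.412, 0.795 and 0.336 CPM in HHH libraries. The populations did not overlap in either batch, and the log2 fold change was 1.30 ± 0.33 (SE, adjusted edgeR p 0.0324). RNVU1-22 gave 2.16 and 3.29 CPM against 6.28 and 3.89 CPM in batch 1, and 0.556, 0.983 and 0.550 CPM against 1.06, 1.54 and 1.38 CPM in batch 2, for a log2 fold change of 0.92 ± 0.20 (SE, adjusted edgeR p 0.0146). For RNVU1-15 the values were 2.30 and 2.72 CPM against 4.82 and 3.32 CPM in batch 1, and 0.504, 0.913 and 0.650 CPM against 0.842, 2.04 and 1.17 CPM in batch 2. Its HHH libraries overlapped the general ones in batch 2, and the log2 fold change was 0.84 ± 0.23 (SE, adjusted edgeR p 0.0430). All 9 U1 variants had positive estimates, between 0.52 and 1.30, and 8 of them had an unadjusted p below 0.05. The share of all genes at that p is not given, so the 8 are not read as above the background. Their median of 0.73 fell to 0.39 without HHH replicate 2 of batch 1.

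RNU5D-1 gave 8.64 and 8.65 CPM in general and 31.5 and 10.9 CPM in HHH libraries of batch 1, and 1.15, 1.26 and 1.18 CPM against 1.48, 1.83 and 1.94 CPM in batch 2. HHH libraries were higher in each batch (log2 fold change 0.92 ± 0.25, SE, adjusted edgeR p 0.0399). All 8 U5 members had positive estimates, from 0.65 to 1.05, each with an unadjusted p below 0.05, for which the share of all genes is not given. Their median of 0.90 fell to 0.39 without HHH replicate 2 of batch 1. The largest estimate, RNU5E-6P at 1.05 ± 0.30 (SE), missed the threshold with an edgeR adjusted p of 0.0585. RNU5A-1, the reference U5 gene, had a log2 fold change of 0.95 ± 0.33 (SE, adjusted edgeR p 0.112). Its values were 57.4 and 49.2 CPM in general and 232 and 60.7 CPM in HHH libraries of batch 1, and 1.84, 2.65 and 2.13 CPM against 1.84, 3.89 and 3.11 CPM in batch 2. Within batch 1 RNU5A-1 was carried by HHH replicate 2, and in batch 2 the populations overlapped.

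RNU1-57P went the other way. It gave 0.475 and 0.335 CPM in general and 0.0858 and 0.137 CPM in HHH libraries of batch 1, and 0.712, 0.667 and 0.700 CPM in general and 0.309, 0.363 and 0.301 CPM in HHH libraries of batch 2. Each HHH library lay below each general library of its batch, and the log2 fold change was -1.30 ± 0.23 (SE, adjusted edgeR p 0.00332). This gene lies antisense in an exon of XACT, a noncoding RNA known from human pluripotent cells. XACT itself held 87 counts over the 10 libraries and was not tested, and the strand setting of the counting is not given in the sources used here, so reads from the pair cannot be told apart.

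**Figure D2:**
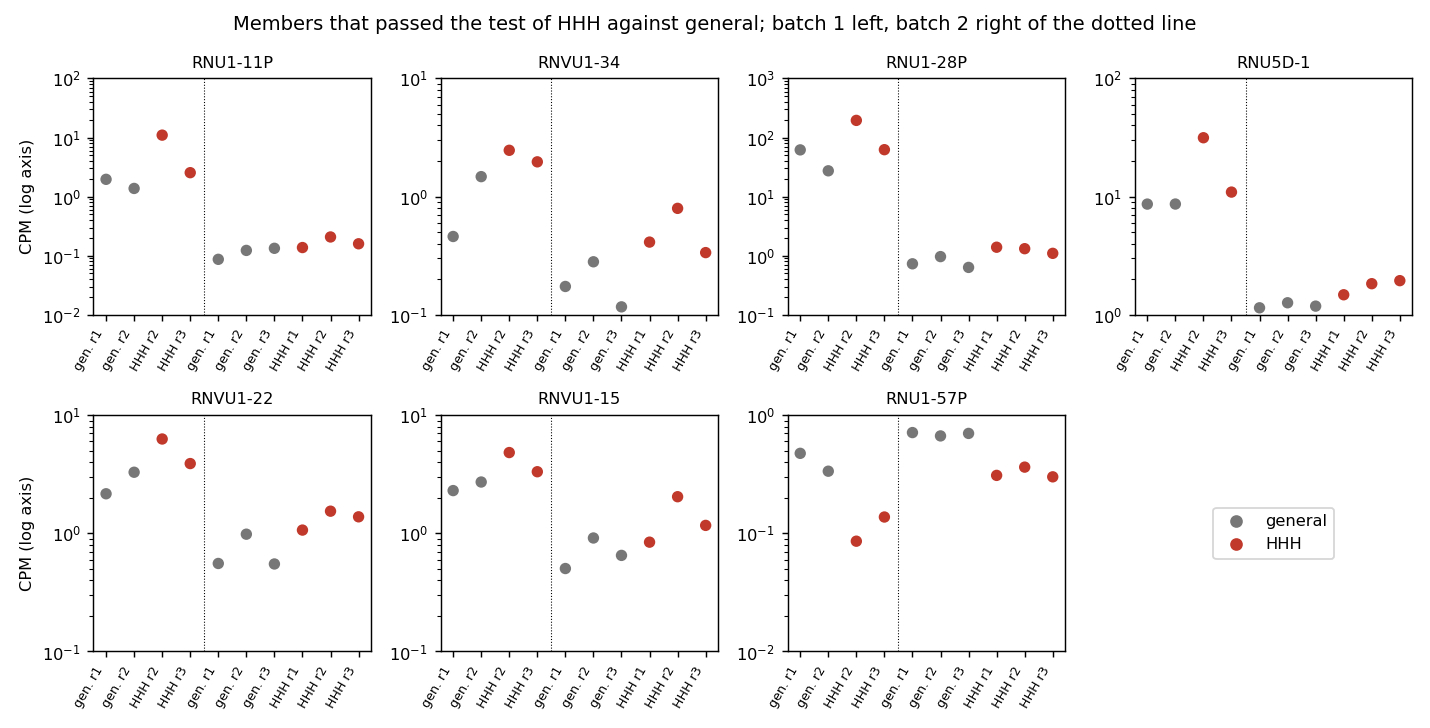
CPM (vertical log axis) of the 7 members that passed the test in each of the 10 libraries, general in grey and HHH in red, with batch 1 left and batch 2 right of the dotted line. In RNU1-11P the HHH libraries reached 10.98 CPM in batch 1 and at most 0.207 CPM in batch 2, and in RNU1-57P every HHH library lay below the general libraries of its batch.

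In 5 members every HHH library lay above every general library in each batch (RNU1-11P, RNU1-28P, RNVU1-22, RNVU1-34 and RNU5D-1), and in 1 (RNU1-57P) every HHH library lay below. Among all genes tested 3.93% were apart upwards and 5.42% downwards.

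The abundant main genes did not pass the test. RNU1-4 gave 173 and 107 CPM in general and 324 and 88.8 CPM in HHH libraries of batch 1, and 1.74, 4.65 and 3.48 CPM against 4.31, 8.56 and 5.50 CPM in batch 2, for a log2 fold change of 0.74 ± 0.32 (SE, adjusted edgeR p 0.207). RNU1-2, with the same letters, had an estimate of 0.08 ± 0.30 (SE), and the identical copy RNU1-27P 0.24 ± 0.43. The variant RNVU1-18, also identical to RNU1-1, stood at 0.86 ± 0.37 (SE, adjusted edgeR p 0.201). For U2, RNU2-2P had a log2 fold change of 0.33 ± 0.19 (SE, adjusted edgeR p 0.357), and the 16 U2 members tested ranged from 0.05 to 0.86 with a median of 0.46. None of the 16 passed with edgeR or DESeq2, and 3 had an unadjusted p below 0.05. The U4 pair had the smallest estimates among the main genes of U1, U2, U4 and U5 other than RNU1-2. RNU4-2 gave 485 and 339.7 CPM against 687 and 283 CPM in batch 1, and 22.3, 44.2 and 37.6 CPM against 27.7, 39.1 and 39.5 CPM in batch 2 (log2 fold change 0.11 ± 0.22, SE). RNU4-1 had 0.19 ± 0.22, and the copy RNU4-82P 0.23 ± 0.44.

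Of the minor spliceosome, RNU4ATAC had a log2 fold change of 0.60 ± 0.31 (SE, adjusted edgeR p 0.291) and RNU6ATAC 0.51 ± 0.31 (SE, adjusted edgeR p 0.368). RNU7-1, the U7 gene, gave 0.935 and 1.34 CPM in general and 2.62 and 1.28 CPM in HHH libraries of batch 1, and 0.695, 1.14 and 0.667 CPM against 0.910, 1.63 and 1.29 CPM in batch 2 (log2 fold change 0.68 ± 0.24, SE, adjusted edgeR p 0.110). None of the U6 members passed with edgeR or DESeq2 (1 had an unadjusted p below 0.05), and they were centred on 0, with a median of 0.0096 over the 22 tested, 11 positive and 11 negative. RNU6-8 had 0.21 ± 0.16 (SE), RNU6-9 -0.14 ± 0.16 and the copy RNU6-146P -0.33 ± 0.13. The U7 copies split evenly, with RNU7-154P at 0.64 ± 0.37 (SE) and a median of 0.08 over the 4.

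**Figure D3:**
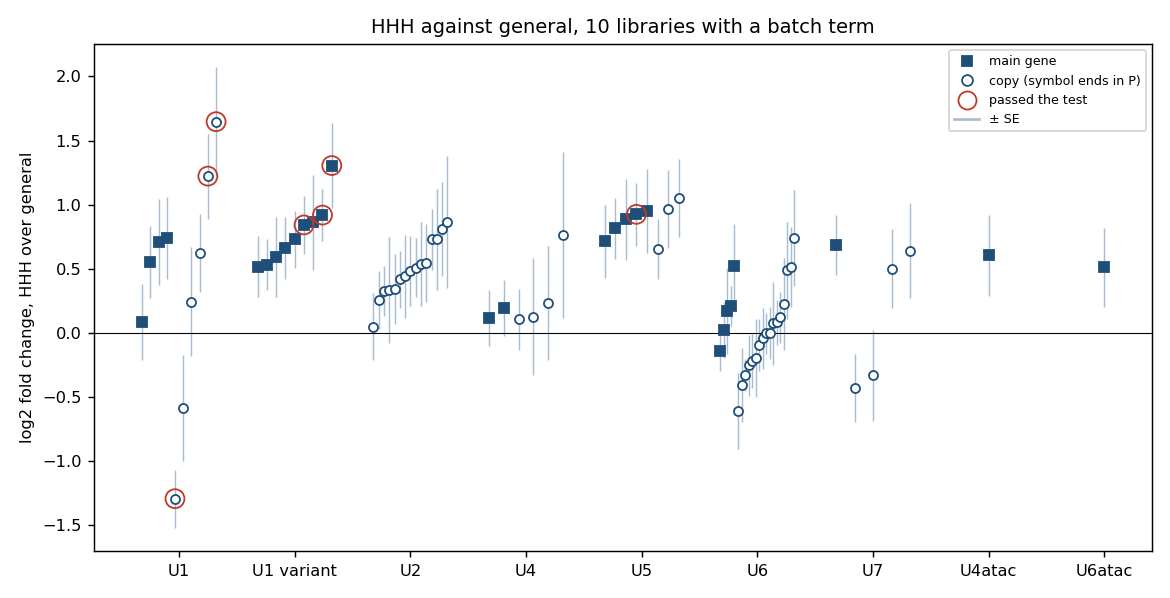
Log2 fold change of HHH over general (vertical axis, bars ± SE) for each member tested, by snRNA type, with main genes as filled squares, copies as open circles and the 7 members that passed the test ringed; the copy on chromosome Y is left out. U1 variants and U5 members all lay above 0, and U6 members lay on both sides of it.

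These counts depended on the libraries and on the pairing. With the replicate number within batch as a block, 26 members were higher in HHH cells (16 main genes and 10 copies) and 1 was lower, where 0.866% of all genes tested were higher and 2.61% lower. In batch 1 only number 2 occurs in both populations, so this block also took general replicate 1 and HHH replicate 3 out of the contrast and left batch 1 to HHH replicate 2 and general replicate 2. The same 8 libraries without the block, an alternative added after seeing the data, gave 19 higher and 1 lower (0.883% and 2.81% of all genes). The part of the pairing in the rise over 7 was not tested. With this block RNU1-4 passed (log2 fold change 1.14, edgeR adjusted p 0.00106), as did RNVU1-18 (1.17, 0.00269), RNU5E-1 (1.01, 0.01002), RNU5E-6P (1.27, 0.00420), RNU5F-1 (0.96, 0.0112), RNU4ATAC (0.82, 0.0139), RNU6ATAC (0.88, 0.0472) and RNU7-1 (0.72, 0.0338), but no member of U4 or U6 did. RNU2-2P reached an adjusted p of 0.0223 in the blocked edgeR fit at a log2 fold change of 0.57, short of 1.5-fold. Without HHH replicate 2 of batch 1 a lone member passed, RNU1-57P, and the medians fell to 0.35 for main genes and 0.027 for copies. The estimates of RNU1-2, RNU1-27P, RNU4-1, RNU4-2, RNU4-82P and RNU6ATAC then turned negative. Without HHH replicate 3 of batch 1, 28 passed, 27 of them higher, where 1.04% of all genes tested were higher and 2.98% lower. Without each of the other libraries, between 0.427 and 0.698% of all genes were higher and between 1.76 and 2.64% lower. The count of members was 3 without general replicate 1 or 2 of batch 1, 2, 5 and 3 without general replicates 1, 2 and 3 of batch 2, and 5, 2 and 4 without HHH replicates 1, 2 and 3 of batch 2. RNU1-57P passed in all 10 of these fits and RNVU1-22 in 9, whereas RNU1-11P and RNVU1-34 passed in 4 and RNU1-28P, RNU5D-1 and RNVU1-15 in 2. Without a batch term no member passed the edgeR test, and 2 had an unadjusted p below 0.05.

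Within batch 1 alone (85 members testable), no member passed the edgeR test, where 0.573% of all genes did, and DESeq2 called 1. There were 26 with an unadjusted p below 0.05 by edgeR, given without the share of all genes. Positive estimates were seen for 68 of the 85, with a median of 0.55. Each population had 2 libraries here, and the count was 44 without HHH replicate 3 (2.08% of all genes), 13 without general replicate 2 (3.03%), 3 without general replicate 1 (0.632%) and 1 without HHH replicate 2 (0.190%). Within batch 2 alone (69 testable), 5 members were higher in HHH cells, RNVU1-34, RNVU1-22, RNU5E-6P, RNU1-28P and RNU5F-1, and RNU1-57P was lower. Of all genes, 0.978% were higher and 3.93% lower in batch 2. The log2 fold changes in batch 2 were 1.43 ± 0.41 (SE) for RNVU1-34, 0.92 ± 0.25 for RNVU1-22, 0.82 ± 0.23 for RNU5E-6P, 0.70 ± 0.21 for RNU1-28P, 0.64 ± 0.17 for RNU5F-1 and -1.10 ± 0.24 for RNU1-57P, with adjusted p values by edgeR between 0.0111 and 0.0448. The median in batch 2 was 0.50 for main genes and 0.01 for copies. U6 gave 14 of the 42 copies tested there (median 0.006) and 4 of the 27 main genes (0.17). With the replicate block, 15 members were higher and 1 lower in batch 2, where 1.2% of all genes were higher and 4.33% lower. Leaving out 1 library of batch 2 gave 1 without general replicate 1, general replicate 3 or HHH replicate 2, 2 without HHH replicate 3, 15 without HHH replicate 1 and 16 without general replicate 2. In these 6 fits between 3.22 and 4.87% of all genes passed. No member passed the edgeR test of whether the difference changed between batches (0.777% of all genes did), and DESeq2 also called none. An unadjusted p below 0.05 was seen for 2 members, and without HHH replicate 3 of batch 1 the edgeR test called 6 (0.446% of all genes).

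The batches themselves differed much more than the populations. In batch 2, 56 of the 78 members were lower and 6 were higher than in batch 1, against 8.92% and 12.5% of all genes tested (edgeR, population as a term). A gene can reach the count minimum through the batch in which it is high, so the share of members lower in batch 2 is given as a description. Each batch held both populations, so the batch term takes the mean difference between batches out of the comparison of HHH and general cells. It does not take out differences between libraries of the same batch. The largest falls were those of RNU1-28P, the U2 copy RNU2-23P (log2 fold change -5.57) and RNU6ATAC. RNU1-28P was 78.96-fold lower in batch 2 (log2 fold change -6.30 ± 0.34, SE, adjusted edgeR p 7.02e-09), RNU6ATAC 42.4-fold, RNU1-2 40.2-fold, RNU5A-1 35.4-fold, RNU2-2P 18.9-fold, RNU4-2 12.8-fold and RNU4-1 9.92-fold. RNU5D-1 was 9.504-fold lower, RNU4ATAC 5.26-fold, RNVU1-22 3.87-fold and RNVU1-15 3.29-fold. The U6 main genes fell by less, RNU6-8 by 2.08-fold and RNU6-9 by 2.13-fold, and for RNU7-1 the change of -0.53 ± 0.24 (SE, log2 scale) did not pass the test. Among the members not tested, RNU2-43P had 40 to 81 counts in each library of batch 1 and 0 in each of batch 2, where 3 counts is the limit that a count of 0 allows, and RNU2-56P had 104 to 193 counts against 0 to 3.

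Other RNAs without a poly(A) tail moved with the snRNAs between batches. Small nucleolar RNA genes summed to between 17597 and 31651 CPM in batch 1 and between 2503 and 5571 CPM in batch 2. Of 11 tested genes on a list of such RNAs other than snRNAs, 10 were lower in batch 2, with a median log2 fold change of -2.58. Between the populations, the snoRNA sum in HHH cells was 0.904 times that of general cells in batch 1 and 1.28 times in batch 2, that of all snRNA members 1.17 and 1.32 times, of U1 1.57 and 1.25 times, of U1 variants 1.74 and 1.58 times, of U2 1.14 and 1.36 times, of U4 1.23 and 1.03 times, of U5 2.35 and 1.46 times and of U6 0.964 and 0.986 times. Without HHH replicate 2 the batch 1 ratio was 0.650 for snoRNA genes, 0.680 for all snRNA members, 1.04 for U5 and 0.993 for U1 variants. None of the 11 listed RNAs passed the edgeR or DESeq2 test between populations (1 had an unadjusted p below 0.05 and 3 passed with the replicate block), and their median log2 fold change was 0.17. What the batches differed in is not given in the sources used here, and the part of this difference in the comparison of populations was not tested.

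Among the members tested, the batch difference was larger for those with a higher identity to the reference gene. Identity is the share of positions of a full-length alignment equal to the reference gene of the type (RNU1-1, RNU2-1, RNU4-1, RNU5A-1, RNU6-1, RNU7-1, RNU4ATAC or RNU6ATAC). Gaps count as differences, so a gene shorter or longer than its reference scores low. Below 70% lay RNU2-69P (100 bases), RNU2-27P (142), RNU4-6P (122) and RNU4-25P (230), beside 191 bases for RNU2-2P and 141 for RNU4-1. RNU4-82P, also below 70%, had 140. The part of gene length in this relation was not tested. Among the U1, U2, U4, U5 and atac members, the 16 with at least 95% identity had a median log2 fold change of -4.82 between batches, the 18 between 85 and 95% -3.96, the 12 between 70 and 85% -2.11, and the 5 below 70% -0.29. The 10 U6 and U7 members with at least 95% identity had a median of -1.31, and the 12 between 70 and 85% one of 0.37. Members too low to test are left out of these medians, and among them were U2 copies of low identity that fell in batch 2. RNU2-38P (40.8%) had 42 to 183 counts in the libraries of batch 1 and 1 to 4 in those of batch 2. For RNU2-46P (48.7%) the counts were 21 to 82 and 0 to 3. Across genes, Spearman's rho between identity and the batch difference was -0.63 over 49 members of U1, its variants, U2, U4 and U5, and -0.84 over 22 of U6. For U1 alone it was -0.70 over 10 members, and for U2 alone -0.38 over 16. These genes share libraries and, in part, reads, so they are not independent. Between the populations rho was 0.07 over the 49 members and 0.23 over the 22 of U6. The 6 members that were higher in batch 2, RNU1-57P, RNU1-16P, RNU6-137P, RNU6-126P, RNU6-850P and RNU7-111P, had identities from 71.3% to 85.3%.

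**Figure D4:**
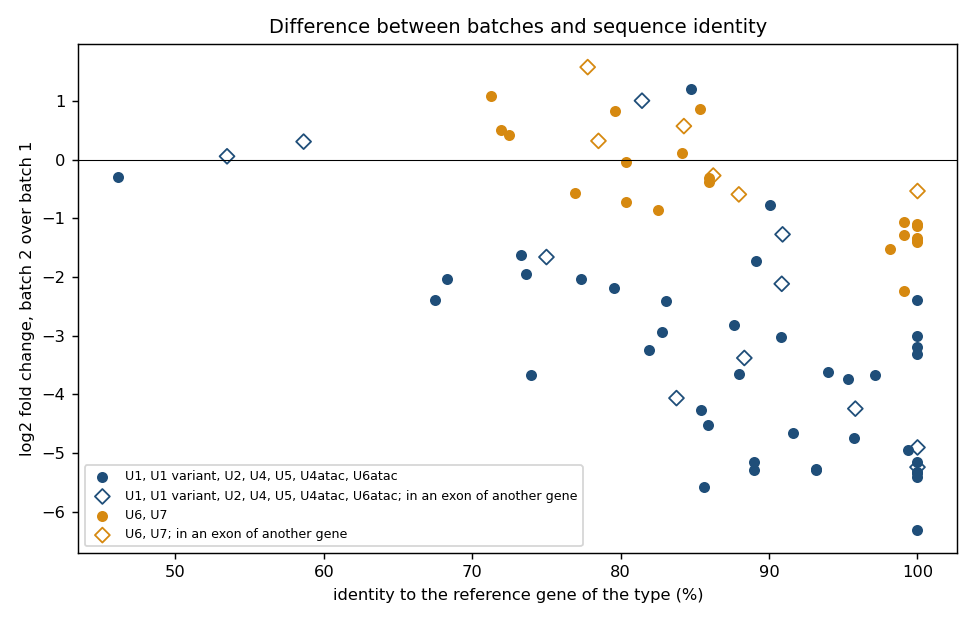
Log2 fold change of batch 2 over batch 1 (vertical axis) against identity to the reference gene of the type in percent (horizontal axis), 1 point per tested member, with U6 and U7 in orange, the other types in blue, and open diamonds for members inside an exon of another gene; the copy on chromosome Y is left out. Blue points fell from near 0 at the lowest identities to -6.30 at 100%, and orange points from 1.58 to -2.24.

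On GENCODE, 17 members overlap an exon of another gene, 42 lie in an intron and 30 have no other gene over them. The 10 tested members in exons of a tested gene had batch differences close to those of that gene, with 7 of 10 within 0.5 on the log2 scale, against 5 of 27 for members in introns. One of the 10 was RNU2-2P, whose counts equalled 99.1% of those of WDR74. The exon and intron members also differed in snRNA type and in identity, and the part of these was not tested. RNU6-146P changed by 0.57 between batches and PRKX, whose exon it lies in, by 0.54. The counts of RNU6-146P equalled 2.27% of those of PRKX. Whether the count of the longer gene includes the reads of the snRNA gene is not given in the sources used here, and RNU1-57P and RNVU1-21, both on the opposite strand, had more counts than the gene whose exon they lie in.

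In WDR74 the counts of the snRNA gene equalled most of the count. WDR74, which encodes a nucleolar protein, held 3328925 counts over the 10 libraries, and the counts of RNU2-2P equalled 99.4 to 99.7% of those of WDR74 in the libraries of batch 1 and 91.5 to 94.7% in batch 2. WDR74 stood at 8992 to 20732 CPM in batch 1 and 535 to 1026 CPM in batch 2, a log2 fold change of -4.15 that was close to that of RNU2-2P (-4.24). After subtracting the counts of RNU2-2P, 48.7, 54.4, 63.8 and 50.2 CPM remained in batch 1 and 45.3 to 54.7 CPM in batch 2. The batches then overlapped. The counts of RNU7-1 equalled 1.18 to 3.39% of those of C12orf57, whose log2 fold change between populations was -0.02 beside 0.68 for RNU7-1.

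**Figure D5:**
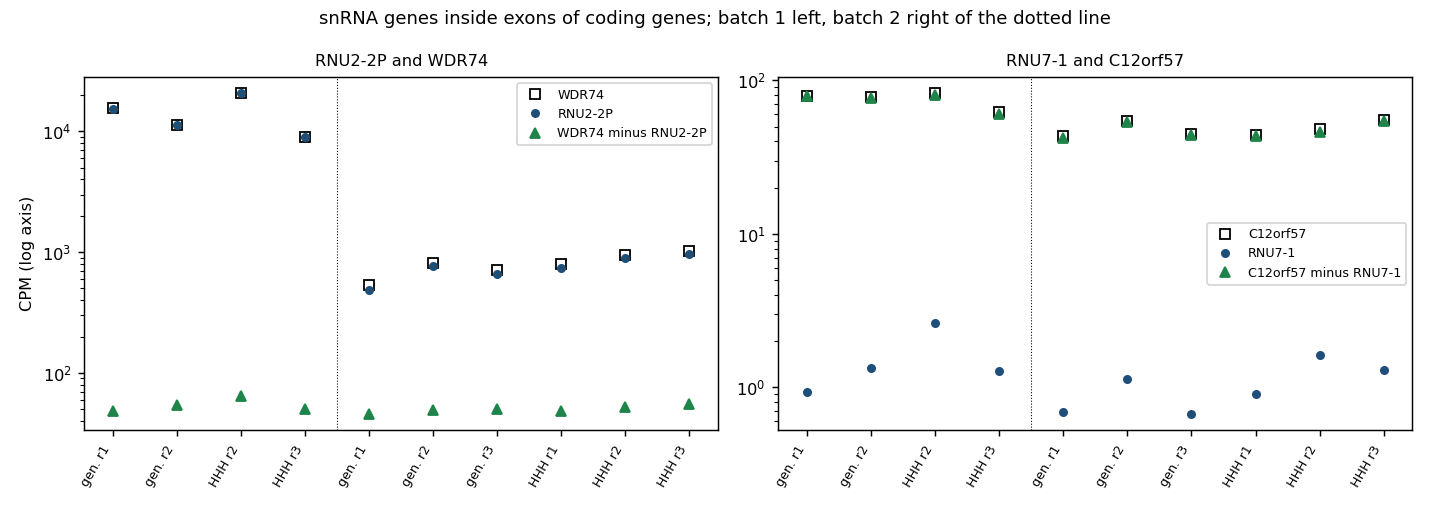
CPM (vertical log axis) in the 10 libraries of 2 coding genes (open squares), of the snRNA gene inside an exon of each (filled circles), and of the coding gene after subtracting the counts of the snRNA gene (triangles). WDR74 followed RNU2-2P from up to 20732 CPM to 535 CPM, while the remainder stayed between 45.3 and 63.8 CPM.

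The messenger RNAs of the proteins that build and carry these particles were also compared between the populations. No gene on the 5 lists passed the edgeR test at 1.5-fold, whether for the 17 Sm and LSm core proteins, the 31 proteins of the major particles, the 13 of the minor spliceosome, the 30 that transcribe snRNA genes or process their 3′ ends, or the 26 that export, assemble or recycle the particles. The median log2 fold changes were 0.18, 0.11, 0.07, 0.02 and 0.10 in that order, beside 0.016 for all genes tested, and 15 of the 17 core proteins had positive estimates. TXNL4A, a protein of the U5 particle, was the 1 gene of the lists with an adjusted p below 0.05, at 55.1 CPM in general and 68.1 CPM in HHH cells (log2 fold change 0.30 ± 0.07, SE, adjusted edgeR p 0.0181). Over the 5 lists, 19 of 117 genes had an unadjusted p below 0.05, and neither DESeq2 nor the replicate block called any. The share of all genes at that p is not given here, so the 19 are not read as above the background.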

How the data were processed

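RNA of 10 libraries was sequenced, 5 of the general and 5 of the HHH population. The deposited table holds whole-number read counts per Ensembl gene. The submitters' processing notes name CASAVA 1.8.2, R 3.2.2, limma 3.26.9 and GRCh37, but the aligner, the counter, its use of strand and of multiply matching reads, and any poly(A) selection are not given in the sources used here. The authors also deposited log2 values of 27641 genes from which the batch means had been removed (equal between batches within 9.2e-14), and these values, a score per gene on a log2 RPKM scale with TMM scaling as the authors' file is labelled, served as an alternative.

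Of the identifiers, 88.5% matched GENCODE 44, which gave names, biotypes, sequences and GRCh38 coordinates by gene ID. Its build differs from that of the files, so no coordinates were carried over from the files.

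Counts were scaled by TMM (factors 0.832 to 1.18). Genes kept by filterByExpr (minimum count 10) were fitted with edgeR 4.0.16 in R 4.3.3 by the quasi-likelihood test, with population and batch as terms, p-values being adjusted by Benjamini-Hochberg over all genes tested. A gene passed at an adjusted p below 0.05 and a fold over 1.5, and the interaction at the adjusted p alone. Counts at an unadjusted p below 0.05 are given without the share of all genes tested, so they are not compared with a background. The common biological coefficient of variation was 0.128. Standard errors are the log2 fold change divided by the root of F. CPM values are divided by effective library size, and 3 counts were taken as the floor. The fits were tested on simulated data. Same-numbered libraries deviated together (r of 0.113 in batch 1, and 0.239, 0.143 and 0.113 in batch 2), so the numbers may pair the libraries within a batch. In batch 1 the 2 libraries a group fix the size of that r, and only number 2 occurs in both populations. The main fits did not use this pairing, so their standard errors and p-values treat the libraries as unpaired. The replicate block is given as an alternative.

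The members and gene lists were chosen with earlier results of these data known. Named members are those that passed over the 10 libraries (at most 10 a direction) or in 1 batch or the interaction (at most 5 each), the main gene of each type with the highest mean CPM (2 for U1, U2, U4, U5 and U6), the copy of each type with the highest, and the pair on each side of the count minimum. Pathway genes are those that passed (at most 4 a list). RNU2-61P, RNU2-23P, RNU2-43P, RNU2-56P, TXNL4A and the members higher in batch 2 were picked after their values were seen. DESeq2 1.42.0, limma 3.58.1, other scalings and filters, the replicate block and each library left out in turn were the alternatives. A copy on chromosome Y enters the counts and medians but is not shown. Some results on neighbouring genes and some sequences are not reported here.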

Additional observations from a re-analysis of the deposited data

Results flagged for a closer look

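Groups of 5 libraries were the values of a named member in 1 population. In 12 of 54 such groups a single library lay far from the nearest other, with the gap divided by the range above 0.71. About 1 in 20 groups drawn from a single normal distribution pass that limit. The groups here pool both batches on an unlogged scale and reuse the same libraries, so the 12 are not set against that rate. In 11 of the 12 that library was HHH replicate 2 of batch 1, followed by the other HHH library of batch 1, so the difference between batches lies inside these groups. The U1 genes gave 324 CPM for RNU1-4 (88.8 in the next library), 269 CPM for RNU1-2 (68.6), 416 CPM for the copy RNU1-27P (71.2), 57.5 CPM for the variant RNVU1-18 (13.1) and 10.98 CPM for the copy RNU1-11P (2.54). The U5 genes gave 232 CPM for RNU5A-1 (60.7), 127 CPM for RNU5E-1 (32.2), 76.3 CPM for RNU5E-6P (18.6) and 27.96 CPM for RNU5F-1 (9.18). The copies RNU4-82P and RNU6ATAC10P reached 29.8 CPM (6.32) and 3.09 CPM (0.549). The remaining case was RNVU1-34 in general replicate 2 of batch 1, at 1.48 CPM with 0.460 CPM in the next library. The part of library preparation in these values was not tested.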

How the results depend on the processing

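Of 7 members that passed over 10 libraries, the count was 5 to 7 with RLE or upper quartile scaling, library size alone, DESeq2 or without the other small RNAs. It was 29 with no filter on low counts, 3 with at least 1 CPM in 5 libraries, 4 with limma voom, 1 at an adjusted p below 0.01, 4 at a fold over 2, 0 without a batch term (edgeR, 2 at an unadjusted p below 0.05), 1 on the deposited log2 values, 0 with glmTreat (9 at an unadjusted p below 0.05) and 1 to 28 with each library left out. The replicate block gave 27 in place of 7 over 10 libraries, where it also takes the 2 unpaired libraries of batch 1 out of the contrast, and 16 in place of 6 in batch 2. The same 8 libraries without the block, an alternative chosen after seeing the data, gave 20. In batch 1, 0 became 4 with library size alone, 28 with no filter, 1 with DESeq2 and 1 to 44 with a library left out, where a lone library is assumed to vary like the others. In batch 2, 6 became 2, 14 and 1 to 16 with library size alone, no filter and a library left out, and the interaction's 0 became 8 with no filter and 0 to 6. Between batches the count stayed between 58 and 73. For the other scalings, filters, tests and thresholds the share of all genes that passed is not given beside the count. Those counts describe the members only and are not set against a background. The cause of these shifts was not tested.

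The median of copies fell to 0.025 on the deposited log2 values. Of 619 values for 26 members, 506 kept direction and side of the threshold, 75 lost the call, 24 gained it and 14 reversed. RNU1-2 reversed to -0.036 with voom and -0.26 on the deposited log2 values, where RNU4-2 went to -0.049 and RNU4-82P to -0.14. With a library left out, log2 fold changes ran from -0.47 to 0.32 for RNU1-2 (below 0 in 3 fits), -0.44 to 0.62 for RNU1-27P (1), -0.14 to 0.26 for RNU4-2 (2), -0.054 to 0.33 for RNU4-1 (1), -0.49 to 0.48 for RNU4-82P (2) and -0.10 to 0.84 for RNU6ATAC (1). The lowest of each came without HHH replicate 2 of batch 1.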
